A study of Homo sapiens with 9 samples.

Results

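The genes described here were 8 cytidine deaminase and uracil repair genes, listed by name: the APOBEC3 deaminases APOBEC3B, APOBEC3C, APOBEC3D, APOBEC3F, APOBEC3G and APOBEC3H, and the uracil glycosylases UNG and SMUG1. By symbol and Ensembl identifier, 6 of the 8 were found among the 15436 genes of the deposited expression table. APOBEC3B and APOBEC3H are not analysed here. The look-up used no measured values, but the list was chosen with earlier results of these data known. All 6 counted as expressed, meaning that 3 or more libraries reached 1 CPM (a count scaled to library size), and all 6 were among the 11346 genes tested.

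The libraries came from Raji, an established human Burkitt lymphoma cell line, and were made from polyadenylated RNA with a stranded kit. There were 3 groups of 3 libraries: cells given DMSO, the solvent control; cells given hydroxyurea (HU), which inhibits ribonucleotide reductase and stalls replication forks; and cells given thymidine-nocodazole (Thy-Noc), which combines thymidine, a block of DNA synthesis, with nocodazole, a microtubule poison that arrests mitosis. Doses, times and the separateness of the cultures are not stated in the sources used here, so p-values measure the spread between these libraries, which may be technical, and all 9 libraries represent 1 cell line. Total counts ran from 74940755 to 110485145 per library. The 7 B cell markers were all tested and summed to between 1210 and 2030 CPM, here scaled by total counts alone, in every library, and no T or NK, myeloid or erythroid marker passed the filter for testing. Of 5 epithelial and fibroblast markers only COL1A1, a fibrillar collagen, was tested; on the same scale it stood at 1.26 to 3.93 CPM in DMSO, 8.33 to 15.0 in HU and 1.86 to 5.22 in Thy-Noc, and its part in the results was not tested. In bulk RNA, fewer cells of a kind and less RNA per cell cannot be told apart.

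The APOBEC3 proteins remove the amino group from cytosine in single-stranded DNA, which turns it into uracil. They are best known for restricting retroviruses and retroelements. UNG is the main enzyme that cuts uracil out of DNA, SMUG1 is a second one with its own substrate range, and the base excision repair enzymes that follow open the strand, fill the gap and seal it.

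The APOBEC3 genes lie side by side on chromosome 22 and share long stretches of sequence, which bears on how far their counts can be told apart. In GRCh38 with GENCODE annotation, APOBEC3C (ENSG00000244509) spans chr22:39014083-39020352, APOBEC3D (ENSG00000243811) chr22:39021113-39033276, APOBEC3F (ENSG00000128394) chr22:39040604-39053910 and APOBEC3G (ENSG00000239713) chr22:39077005-39087743, all on the plus strand. The longest coding stretches that are letter for letter identical between neighbours are shown because reads from inside them fit both genes. The first joins exons 5 and 6 of APOBEC3D (chr22:39029494-39031889) and exons 5 and 6 of APOBEC3F (chr22:39049556-39052269); capitals mark the codons of the zinc-binding H-x-E and P-C-x-x-C residues of the deaminase site. The second runs from the start codon across exons 1 and 2 of APOBEC3F (chr22:39040961-39043061) and of APOBEC3G (chr22:39077362-39079056). The third lies in exon 3 of APOBEC3C (chr22:39017889-39017969) and exon 6 of APOBEC3F (chr22:39052197-39052277), and its capitals mark the codon of the last zinc-binding cysteine.
APOBEC3D and APOBEC3F, 222 bases: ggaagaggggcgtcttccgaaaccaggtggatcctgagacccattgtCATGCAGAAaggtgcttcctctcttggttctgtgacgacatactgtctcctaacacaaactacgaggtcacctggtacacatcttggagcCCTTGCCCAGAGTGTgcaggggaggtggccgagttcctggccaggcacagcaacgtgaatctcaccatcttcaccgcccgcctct
APOBEC3F and APOBEC3G, 142 bases: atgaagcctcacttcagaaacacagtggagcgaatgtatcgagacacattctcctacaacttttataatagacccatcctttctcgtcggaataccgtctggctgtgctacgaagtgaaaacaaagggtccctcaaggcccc
APOBEC3C and APOBEC3F, 81 bases: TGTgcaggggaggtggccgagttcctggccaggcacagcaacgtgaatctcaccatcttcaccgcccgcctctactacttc

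Over whole transcripts the overlap was very uneven. Of all windows of 100 bases in the transcripts of each gene, 0% were found in another gene for APOBEC3C and UNG, 1.07% for SMUG1, 5.05% for APOBEC3G, 13.3% for APOBEC3F and 80.2% for APOBEC3D. Most of the shared windows of APOBEC3D were shared with AL022318.4, a protein-coding gene model on the same strand (chr22:39014363-39033276) whose exons overlap those of APOBEC3C and APOBEC3D. APOBEC3D counts are therefore uncertain, and those of APOBEC3F less so.

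The levels of the 6 genes covered a wide range. Per kilobase of merged exons, and as mean ± SD over the 9 libraries, the level was 77.6 ± 7.98 CPM per kb for UNG and 7.32 ± 1.05 for APOBEC3C. It was 1.40 ± 0.243 CPM per kb for APOBEC3G, 1.39 ± 0.784 for APOBEC3D, 0.954 ± 1.26 for SMUG1 and 0.593 ± 0.340 for APOBEC3F. UNG and APOBEC3C kept apart from each other and from the rest in every library: UNG had at least 65.5, APOBEC3C 5.64 to 9.32, and no other member more than 3.35 CPM per kb. The 4 lowest overlapped with each other, so their order is not resolved. UNG stood at percentile 95.5 of all tested genes on this scale, APOBEC3C at 65.5 and APOBEC3F, the lowest, at 16.4.

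**Figure D1:**
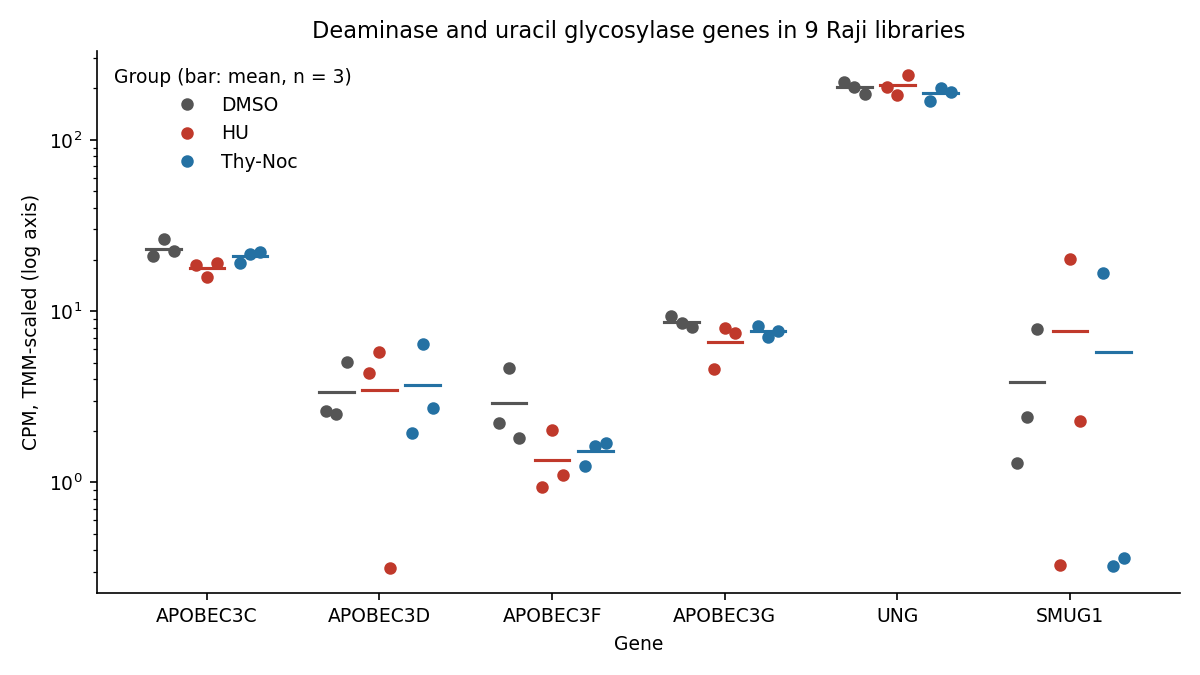
CPM scaled by TMM (log axis) of 6 genes in each of the 9 libraries; points are libraries and bars are group means of 3 libraries. UNG sits between 168 and 238 CPM in all libraries, whereas SMUG1 runs from 0.324 to 20.2 CPM with high and low libraries in every group.

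APOBEC3C, a deaminase with a single catalytic domain, had the highest level among the APOBEC3 genes measured here. Per kilobase it made up 56.4% to 78.8% of the summed APOBEC3C, APOBEC3D, APOBEC3F and APOBEC3G level, with a median of 69.8%, whereas APOBEC3G made up 8.96% to 16.0%. That summed level was 10.9, 13.3 and 11.9 CPM per kb in DMSO libraries 1 to 3, 9.40, 9.99 and 8.62 with HU and 9.39, 12 and 10.8 with Thy-Noc. Every HU library lay below every DMSO library, and Thy-Noc overlapped with both. The shares and sums include the uncertain APOBEC3D counts. They also depend on the merged exon length, 2818 bases for APOBEC3C and 5437 for APOBEC3G, which has 7 transcripts, 1 of them coding. Without correction for length, APOBEC3C was at 15.9 to 26.3 CPM and APOBEC3G at 4.58 to 9.37 CPM.

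APOBEC3C was at 21.0, 26.3 and 22.3 CPM in DMSO libraries 1 to 3, 18.5, 15.9 and 19.1 with HU and 19.0, 21.6 and 22.0 with Thy-Noc. The 3 HU libraries all lay below the 3 DMSO libraries, and the Thy-Noc libraries overlapped with DMSO. The means were 17.8 ± 1.72 in HU and 23.2 ± 2.76 in DMSO (SD, n = 3 each). The log2 fold change was -0.38 ± 0.15 (SE; 95% interval -0.73 to -0.02), with an edgeR quasi-likelihood p of 0.0393 and a Benjamini-Hochberg adjusted p of 0.207, so it did not pass the threshold of 0.05. DESeq2 gave an adjusted p of 0.0282; over all alternatives the adjusted p ran from 0.0282 to 0.467.

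APOBEC3G, a deaminase with a pair of domains and the classic HIV restriction factor, was at 9.37, 8.50 and 8.04 CPM in the DMSO libraries, 4.58, 7.94 and 7.40 with HU and 8.17, 7.10 and 7.60 with Thy-Noc. Again every HU library lay below every DMSO library, but HU 1 alone was far lower. The log2 fold change in HU against DMSO was -0.38 ± 0.23 (interval -0.92 to 0.17; edgeR adjusted p = 0.411), and -0.17 without HU replicate 1.

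APOBEC3F, a relative of APOBEC3G in the same restriction role, was low: 2.22, 4.64 and 1.81 CPM in the DMSO libraries, 0.936, 2.01 and 1.11 with HU and 1.24, 1.64 and 1.70 with Thy-Noc. DMSO 2 was over 2 times as high as every other library, and HU overlapped with DMSO whereas Thy-Noc lay below it. The log2 fold change was -1.10 ± 0.45 in HU (interval -2.15 to -0.05; edgeR unadjusted p = 0.0428, adjusted p = 0.215) and -0.92 ± 0.45 in Thy-Noc (interval -1.97 to 0.13; adjusted p = 1.0). Without DMSO replicate 2 the HU value was -0.57, with an adjusted p of 0.515.

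APOBEC3D, also with a pair of domains, was at 2.62, 2.51 and 5.04 CPM in the DMSO libraries, 4.33, 5.74 and 0.315 with HU and 1.95, 6.41 and 2.70 with Thy-Noc. High and low libraries occurred in all groups, and HU 3, with 33 counts, was the lowest. The interval of the log2 fold change in HU against DMSO, -2.16 to 2.21, means that a change of several fold in either direction was not detectable here.

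UNG (ENSG00000076248, chr12:109097574-109110992, plus strand) was the most abundant and among the steadiest of the 6 genes. Its values were 218, 204 and 185 CPM in the DMSO libraries, 203, 183 and 238 with HU and 168, 202 and 191 with Thy-Noc, from 12315 counts or more, and the coefficient of variation over all 9 libraries was 10.3%. The groups overlapped. UNG differed in HU from DMSO by a log2 fold change of 0.04 ± 0.13, with an interval from 0.836-fold to 1.26-fold (edgeR adjusted p = 0.919), and in Thy-Noc by -0.11 ± 0.13, from 0.751-fold to 1.14-fold (adjusted p = 1.0). These intervals leave out a change of 1.5-fold or more. The gene has coding transcripts from 2 transcription starts, for nuclear and mitochondrial forms, which a gene-level count does not separate.

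SMUG1 (ENSG00000123415, chr12:54121277-54189008, minus strand) was far less steady than UNG. It was at 1.29, 2.42 and 7.90 CPM in the DMSO libraries, 0.329, 20.2 and 2.28 with HU and 16.6, 0.324 and 0.362 with Thy-Noc. Each group held 1 library far above its others: DMSO 3, HU 2 and Thy-Noc 1. The highest and lowest of the 9 libraries differed 62.3-fold, with 25 to 1559 counts, and the ratio of UNG to SMUG1 per kilobase ran from 21.3 to 1460. The log2 fold change in HU against DMSO was 0.97 ± 1.85 (interval -3.37 to 5.32; edgeR adjusted p = 0.853) and became -1.56 without HU replicate 2; in Thy-Noc it was 0.58 ± 1.84 (interval -3.75 to 4.90; adjusted p = 1.0) and became -3.49 without Thy-Noc replicate 1.

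SMUG1 was the single member whose libraries of 1 group differed at least 10-fold, after adding 0.5 CPM to every value; the largest such fold was 25, in HU. Among all tested genes, 1838 of 11346 (16.2%) reached this spread. The share was 1.39% of genes with 1 annotated transcript, 5.81% with 2 to 3 and 14.8% with 4 to 10. It was 26.3% of the 3736 genes with over 10. SMUG1 has 25 annotated transcripts and UNG 5. The median of all tested genes was 2.03-fold, and the other members stood at 1.25-fold (APOBEC3C), 1.30-fold (UNG), 1.66-fold (APOBEC3G), 2.23-fold (APOBEC3F) and 7.66-fold (APOBEC3D). Exons of SMUG1 overlap the noncoding genes FLJ12825 on the opposite strand and FAM242C on the same strand. How the authors' counting used strand and transcripts is not stated in the sources used here, and its part in the spread was not tested.

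**Figure D2:**
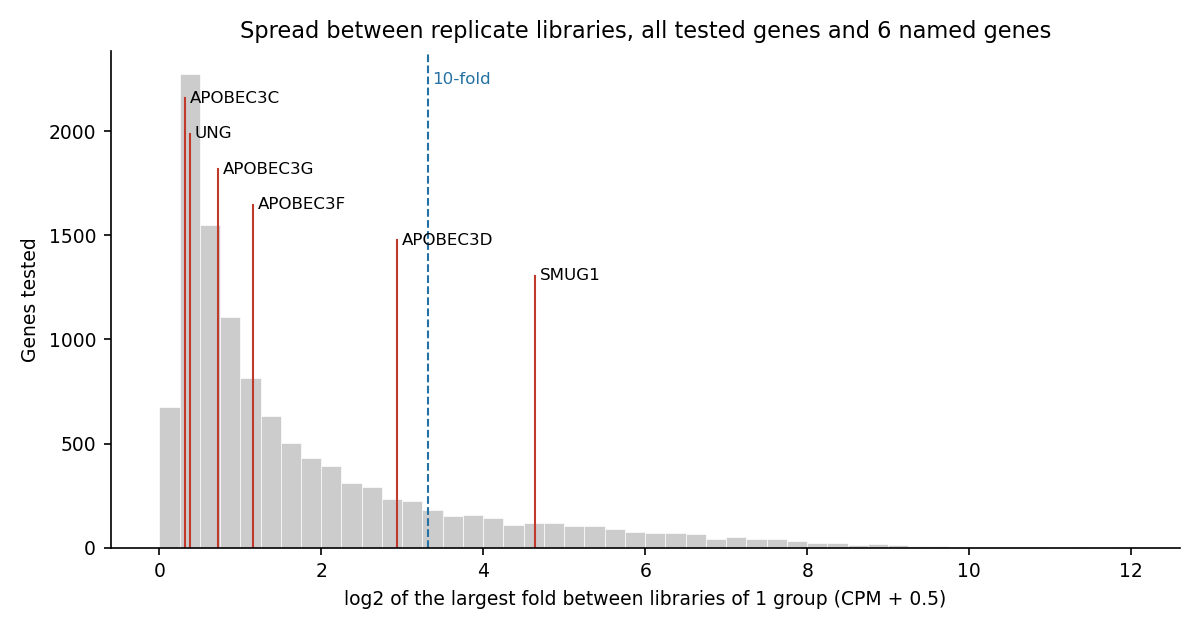
Histogram of the largest fold between libraries of 1 group (log2, after adding 0.5 CPM) over the 11346 tested genes; red lines mark 6 named genes and the dashed line marks 10-fold. SMUG1 lies beyond the dashed line at 25-fold, and APOBEC3C and UNG lie near the left edge.

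None of the 6 members was called at an adjusted p under 0.05 in any comparison. Of all tested genes, 3.56% were called in HU against DMSO, 0.0353% in Thy-Noc against DMSO and 1.75% in HU against Thy-Noc. At an unadjusted p under 0.05, 2 members (APOBEC3C and APOBEC3F) passed in HU against DMSO, both lower, where 21.2% of all genes passed and 10.1% did so with lower values; 0 members passed in Thy-Noc against DMSO (4.49% of all genes) and 0 in HU against Thy-Noc (19.4%). DESeq2 called 1, 0 and 0 members in these comparisons, beside 19.5%, 1.64% and 16.7% of all genes; the 1 was lower, as were 9.66% of all genes. limma called 0, 0 and 0 members, beside 4.95%, 0.106% and 2.87% of all genes. The groups did not overlap for 2 members in HU against DMSO (30.7% of all genes; both were lower, as were 15.3% of all genes), for 1 in Thy-Noc against DMSO, also lower (9.97%, or 4.79% lower) and for 0 in HU against Thy-Noc (24.9%). The members' median log2 fold change was -0.17, -0.13 and -0.13 in the same order, and that of all tested genes 0.02, 0.01 and 0.01. The comparisons share libraries, so they are not independent of each other.

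**Figure D3:**
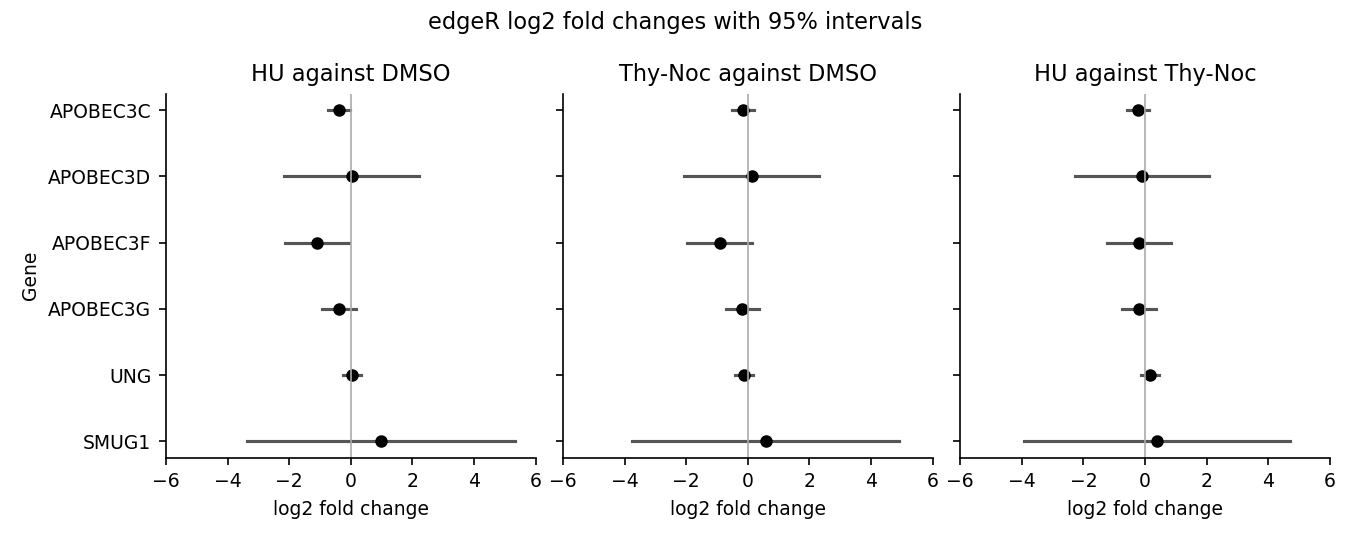
edgeR log2 fold changes of 6 genes (points) with 95% intervals (lines) in the 3 comparisons, fitted over all 9 libraries. UNG has short intervals around 0, and those of SMUG1 and APOBEC3D extend more than 2 units to either side.

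Between HU and Thy-Noc directly, UNG differed by a log2 fold change of 0.15 ± 0.13 (interval -0.14 to 0.45; edgeR adjusted p = 0.594) and APOBEC3C by -0.23 ± 0.15 (adjusted p = 0.486). For the other members the adjusted p ran from 0.731 (APOBEC3G) to 0.981 (APOBEC3D). Scaling by total counts alone moved the median of all genes to 0.12 in HU against DMSO and 0.16 in HU against Thy-Noc. With it, the share of calls that were higher was 72.7% instead of 56.2%, and 70.7% instead of 39.7%, while APOBEC3C in HU against DMSO was at -0.27 instead of -0.38.

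The other genes of base excision repair were measured in full, 18 of 18, and 0 were called in each comparison. In HU against DMSO, 5 had an unadjusted edgeR p under 0.05 (21.2% of all genes) and all 5 were lower (10.1% of all genes): APEX1, LIG1, LIG3, PARP1 and PCNA. DESeq2 called 4 of them, all but PCNA (19.5% of all genes with an adjusted p, and 9.66% lower), and limma called 0 (4.95%). The list's median log2 fold change was 0.08. In Thy-Noc against DMSO the unadjusted edgeR p of 1 gene was under 0.05 (4.49% of all genes). DESeq2 (1.64%) and limma (0.106%) called 0 genes of this list there. In HU against Thy-Noc 4 genes had such a p (19.4%), DESeq2 called 3 (16.7%) and limma 0 (2.87%).

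APEX1, the endonuclease that cuts the strand where a glycosylase has removed a base, was at 400, 476 and 428 CPM in the DMSO libraries, 256, 270 and 233 with HU and 231, 335 and 454 with Thy-Noc. All HU libraries were below all DMSO libraries (log2 fold change -0.78 ± 0.23; edgeR adjusted p = 0.114, or 0.0496 without Thy-Noc replicate 1; DESeq2 adjusted p = 0.0156). Over all edgeR, DESeq2 and limma alternatives the adjusted p of APEX1 in HU against DMSO ran from 0.0156 to 0.269. LIG3, the ligase that seals short patches with XRCC1, was at 81.1, 92.5 and 67.9 CPM in the DMSO libraries, 41.4, 59.7 and 48.5 with HU and 69.0, 80.3 and 75.9 with Thy-Noc. Its HU libraries lay below those of both other groups (-0.69 ± 0.17 against DMSO; edgeR adjusted p = 0.0798, DESeq2 0.00158).

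LIG1, the replicative ligase that also seals long patches, was at 216, 269 and 300 CPM in the DMSO libraries, 79.3, 128 and 148 with HU and 285, 216 and 154 with Thy-Noc, with all HU libraries lowest (-1.14 ± 0.30 against DMSO; edgeR adjusted p = 0.0867, DESeq2 0.00418). PARP1, a sensor of strand breaks, was at 5.63, 15.4 and 7.24 CPM in the DMSO libraries, 0.860, 4.13 and 0.858 with HU and 7.05, 2.93 and 6.06 with Thy-Noc (-2.27 ± 0.77 against DMSO; edgeR adjusted p = 0.153, DESeq2 0.0170). FEN1, the flap nuclease of long patch repair, had a log2 fold change of 0.01 ± 0.14 in HU, and XRCC1, the scaffold of single-strand break repair, 0.14 ± 0.17. Over the edgeR, DESeq2 and limma alternatives the adjusted p in HU reached 0.215 for LIG3, 0.208 for LIG1 and 0.345 for PARP1.

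**Figure D4:**
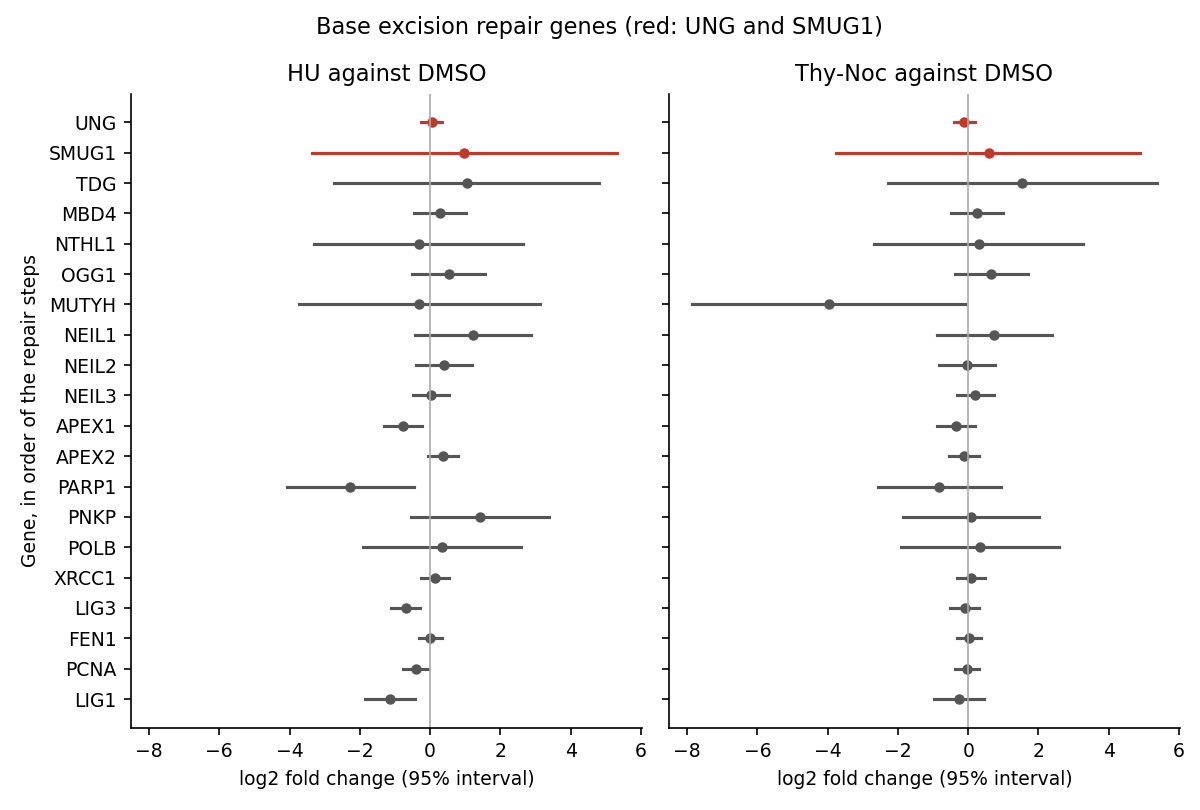
edgeR log2 fold changes with 95% intervals of UNG, SMUG1 (red) and the 18 other base excision repair genes, from the glycosylases at the top to the ligases at the bottom, on 1 scale for HU and Thy-Noc against DMSO. In HU, the intervals of APEX1, PARP1, LIG3, PCNA and LIG1 lie below 0, and UNG is at 0.04.

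Among the glycosylases that can also remove uracil or thymine opposite guanine, MBD4 was at 16.4, 21.1 and 16.1 CPM in the DMSO libraries, 25.2, 17.9 and 22.5 with HU and 32.3, 15.4 and 16.6 with Thy-Noc, with overlapping groups. TDG was at 0.177, 1.66 and 0.216 CPM in the DMSO libraries, 1.59, 0.0777 and 2.56 with HU and 5.46, 0.260 and 0.300 with Thy-Noc, so it was near or under 1 CPM in most libraries. UNG was thus above 100 CPM in every library, and the other 3 enzymes that act on uracil were below 40 CPM, without correction for length. These are levels of the deposited values, and some genes vary widely within a group, such as SUPT5H at 783 and 0.140 CPM in DMSO. Whether the low SMUG1 and TDG values come from the counting step was not tested.

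Of 7 mismatch repair genes, which process the same uracil-guanine mismatches in B cells, 6 were tested and edgeR called 0 in each comparison; DESeq2 called 1, EXO1, in HU against DMSO, and limma 0. EXO1, the exonuclease of this pathway, was named after its values were seen: it was at 2.55, 1.88 and 1.89 CPM in the DMSO libraries, 4.82, 5.64 and 4.42 with HU and 1.41, 3.04 and 3.40 with Thy-Noc. All HU libraries were highest (log2 fold change against DMSO 1.24 ± 0.35; edgeR adjusted p = 0.104, or 0.0471 without Thy-Noc replicate 1; DESeq2 0.00468). It was the single gene of its list with an unadjusted edgeR p under 0.05 in HU against DMSO, where 21.2% of all genes passed. DESeq2 called 19.5% of all genes in this comparison. Over all edgeR, DESeq2 and limma alternatives the adjusted p of EXO1 there ran from 0.00468 to 0.252. MLH3, the gene of largest change among those of this list with a mean of at least 5 CPM, was at 12.6, 12.2 and 8.06 CPM in DMSO and 10.6, 1.94 and 9.79 in HU (-0.56 ± 1.43; edgeR adjusted p = 0.897), and Thy-Noc 1 stood apart at 0.0273 CPM.

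Of 8 genes of the uracil and cytidine nucleotide pool, 7 were tested and edgeR and limma called 0 in each comparison. In HU against DMSO, 2 had an unadjusted edgeR p under 0.05 (21.2% of all genes), and 1 was called by DESeq2 (19.5%). In Thy-Noc against DMSO both counts were 0 (4.49% and 1.64%). In HU against Thy-Noc they were 3 and 1 (19.4% and 16.7%). DUT, the dUTPase that keeps uracil out of DNA, was at 1.47, 1.95 and 1.18 CPM in the DMSO libraries, 12.5, 2.58 and 2.44 with HU and 48.4, 0.247 and 2.12 with Thy-Noc, so that its group means rest on HU 1 and Thy-Noc 1 (log2 fold change in HU against DMSO 1.93 ± 1.60; edgeR adjusted p = 0.569; in Thy-Noc against DMSO 3.46 ± 1.71, and -0.37 without Thy-Noc replicate 1). Of 14 factors that bind single-stranded DNA or assist cytidine deamination in transcribed genes, 13 were tested and edgeR and limma called 0 in each comparison. DESeq2 called 1, SUPT5H, as lower in HU (19.5% of all genes called) and in Thy-Noc (1.64%) against DMSO. Unadjusted edgeR p-values under 0.05 numbered 2 and 1 (21.2% and 4.49% of all genes). SUPT5H, a transcription elongation factor, was at 593 and 783 CPM in DMSO 1 and 2 and at no more than 2.70 CPM in each of the other 7 libraries.

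For context, genes of mitosis and of the interferon response were measured in the same libraries. Of all genes, edgeR, DESeq2 and limma called 3.56%, 19.5% and 4.95% in HU against DMSO. In Thy-Noc against DMSO the shares were 0.0353%, 1.64% and 0.106%, and 4.49% had an unadjusted edgeR p under 0.05. CDC20, which activates the ubiquitin ligase that triggers anaphase, was at 211, 211 and 190 CPM in the DMSO libraries, 64.7, 41.3 and 70.3 with HU and 339, 215 and 261 with Thy-Noc; it fell by 1.79 on the log2 scale in HU (edgeR adjusted p = 0.0220). In the list of 14 genes of G2 and mitosis, 5 fell in HU against DMSO (8 by DESeq2 and 6 by limma); in Thy-Noc against DMSO edgeR and limma called 0, DESeq2 1, and 1 had an unadjusted p under 0.05. Of 15 interferon response genes tested, a group to which several APOBEC3 genes are known to belong, 4 rose in HU (IFI6, IRF7, SAMD9L and IFIT5; 9 genes by DESeq2 and 6 by limma), the list's median being 2.32, and in Thy-Noc edgeR, DESeq2 and limma called 0, with 0 at an unadjusted p under 0.05. SAMD9L was at 2.54, 1.85 and 3.23 CPM in DMSO and 35.7, 12.1 and 29.7 in HU (log2 fold change 3.35 ± 0.46; edgeR adjusted p = 0.0222). Both calls were lost on leaving out DMSO replicate 1, 2 or 3 or HU replicate 1 or 3, with adjusted p-values of 0.0551 to 0.0745 for CDC20 and 0.0655 to 0.0834 for SAMD9L.

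The genes most like each member in pattern over the 9 libraries were found by Pearson correlation of log2(CPM + 0.5) among tested genes with a mean of at least 5 CPM, as a description. For UNG they were SLC25A45 (r = 0.878), SNTB2 (0.876) and GUCD1 (0.873), and for SMUG1 BCL7B (0.943), FAM50A (0.906) and CEP95 (0.896). For APOBEC3C they were KNOP1 (0.956), RFK (0.954) and VPS35 (0.935), for APOBEC3D CCDC25 (0.919), TLE4 (0.906) and NDUFS4 (0.905), for APOBEC3F TEDC2 (0.937), DLG2 (0.934) and PRRC2A (0.923), and for APOBEC3G PTK2 (0.947), IKBKB (0.941) and ACAT1 (0.938). No other member appeared in these lists, but APOBEC3D and APOBEC3F, with means of 3.51 and 1.92 CPM, were under the limit and could not appear. Between members, r was highest for APOBEC3C with APOBEC3F (0.63) and APOBEC3F with APOBEC3G (0.60), and lowest for UNG with SMUG1 (-0.56). The libraries share groups and depth, so these values describe these 9 libraries only.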

How the data were processed

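Polyadenylated RNA of 9 Raji libraries was sequenced; the submitters' processing notes list FastQC, Trim Galore, STAR, DESeq2 and GRCh38, and the counting step is not stated in the sources used here. The deposited table is named for CPM but holds whole numbers that sum to 74940755 to 110485145 per library, with no value of 0 and 274 genes at 1 in all libraries, so its values were treated as estimated counts to which the authors may have added 1.

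From these counts, genes with at least 1 CPM in at least 3 libraries (11346 of 15436; 15393 identifiers matched a symbol) were fitted together in R 4.3.3 with edgeR 4.0.16 (TMM factors 0.918 to 1.102, quasi-likelihood test, 3 groups, 6 residual and 1.25 prior degrees of freedom, two-sided). P-values were Benjamini-Hochberg adjusted over all genes tested. Alternatives used other filters and scalings, DESeq2 1.42.0, limma 3.58.1, a replicate block and left-out libraries. The procedure was tested on simulated data in which the spread between libraries was capped at that of steady genes. That test does not cover genes with a wide spread, such as SMUG1 and APOBEC3D. Figures were drawn with matplotlib 3.10.9. At the lowest count of a member, 25 for SMUG1, counting error alone is 20.0%.

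No pair of libraries within a group was a duplicate: chi-square per degree of freedom was at least 691. Pairs across groups were not checked in this way. Replicate numbers were not taken as pairs.

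The members and gene lists were chosen with earlier results of these data known. Named were all members, up to 4 called genes per list and direction with a mean of at least 2 CPM, or, where none was called, the gene of largest change with a mean of at least 5 CPM; APEX1, LIG1, LIG3, MBD4, TDG, FEN1, XRCC1, EXO1 and NTHL1 were added after their values were seen. From the mitosis and interferon lists, values are given for CDC20 and SAMD9L only; the rule also picks CENPF, CKS2 and TOP2A, which were called lower in HU. Of 13 S phase genes, 2 rose in HU (SLBP and CCNE2) and 1 in Thy-Noc (SLBP) against DMSO. Of all genes, edgeR called 3.56% and 0.0353% in these comparisons. Values of the S phase genes are not given.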

Additional observations from a re-analysis of the deposited data

Results flagged for a closer look

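Genes whose response to HU differed from that to Thy-Noc, tested directly between the treatments, were looked for in a set of named genes. The set held the 6 members, APEX1, LIG1, LIG3, PARP1, SAMD9L, CDC20, EXO1, DUT and SUPT5H. No member was among those found. The glycosylases MBD4, TDG, NTHL1 and MUTYH were outside the set and were not called in this comparison (lowest edgeR adjusted p = 0.276, for MUTYH). SAMD9L was higher in HU than in Thy-Noc by a log2 fold change of 2.97 ± 0.45 (edgeR adjusted p = 0.0358; over the alternatives up to 0.124), with 35.7, 12.1 and 29.7 CPM in HU and 3.63, 3.69 and 2.56 in Thy-Noc. The call was lost with no filter on low counts (0.0501), with only the 6 libraries compared (0.116) and on leaving out any 1 library other than HU replicate 2 (0.0600 to 0.124). CDC20 was lower in HU by -2.21 ± 0.24 (edgeR adjusted p = 0.0169; over the alternatives up to 0.0810), with 64.7, 41.3 and 70.3 CPM in HU and 339, 215 and 261 in Thy-Noc. Its call was lost with only the 6 libraries compared (0.0810), without HU replicate 1 (0.0715) and without Thy-Noc replicate 3 (0.0635).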

How the results depend on the processing

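The count of all genes called changed with the settings named here. In HU against DMSO it was 404 as reported, 220 with no filter, 51 with only the 6 libraries compared, 2135 with DESeq2, and 21 to 318 with 1 library left out, moving by over 1.5 times for every library but Thy-Noc 1. In Thy-Noc against DMSO it was 4, 179 with DESeq2, 12, 12 and 7 with limma at 0.5, 1 and 0.1 CPM, and 5 to 13 with 1 library left out. In HU against Thy-Noc it was 199, 64 with no filter, 313 at a 5 CPM minimum, 1826 with DESeq2, 326, 346 and 311 with limma, 18 with 6 libraries, and 1 to 103 with 1 library left out.

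Of 829 alternative values for 45 gene results, 755 kept direction and call, 29 lost the call, 12 gained it and 33 changed sign; APOBEC3D, APOBEC3F, EXO1, DUT and SUPT5H gave none at 5 CPM, and SUPT5H none without DMSO 1, DMSO 2 or HU 2, nor, for the comparisons with Thy-Noc, with 6 libraries. In HU against DMSO, APOBEC3D (0.03) was -0.36, -0.23 and -0.59 with limma and -0.54 to 0.57 with 1 library left out; UNG was -0.06 to 0.13 and SMUG1 -1.56 to 2.04 (-0.15 with limma at 0.1 CPM). In Thy-Noc against DMSO, left-out ranges were -0.54 to 0.53 for APOBEC3D, -3.49 to 1.64 for SMUG1 (limma -0.62, -0.38 and -1.03), -0.21 to 0.01 for LIG3 and -0.37 to 4.05 for DUT. In HU against Thy-Noc they were -0.67 to 0.58 for APOBEC3D, -0.57 to 0.03 for APOBEC3F, -0.34 to 0.01 for APOBEC3G, -2.14 to 4.47 for SMUG1 and -2.75 to 2.31 for DUT (limma 0.10 and 0.40). The cause was not tested.

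Same-numbered libraries did not deviate together over all genes (9 pairs, r -0.04 to 0.04), and 4 of 9 libraries matched their own number best. With 3 libraries per group and a wide spread between them, this cannot exclude that same-numbered libraries were handled together. With a replicate block the calls were 9, 0 and 0; APOBEC3D was -0.32 in HU and -0.17 in Thy-Noc and SMUG1 -0.28 in Thy-Noc, against DMSO, and the adjusted p was 0.0660 for SAMD9L and 0.0604 for CDC20 there, and 0.0996 and 0.0680 in HU against Thy-Noc.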

Other observations

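NTHL1, the glycosylase for oxidised pyrimidines, was at 31.8, 17.5 and 111 CPM in the DMSO libraries, 9.19, 110 and 8.10 with HU and 143, 24.7 and 29.2 with Thy-Noc. Its highest library in each group, DMSO 3, HU 2 and Thy-Noc 1, was also the highest for SMUG1. Over the 9 libraries r between NTHL1 and SMUG1 was 0.78, rank 37 of 8131 genes, a pair chosen after its values were seen. MUTYH, the adenine glycosylase, also varied within groups, at 42.0, 0.831 and 90.0 CPM in the DMSO libraries, 49.2, 55.9 and 2.34 with HU and 3.25, 1.34 and 3.86 with Thy-Noc (log2 fold change in Thy-Noc against DMSO -3.97 ± 1.65; edgeR adjusted p = 1.0).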
